A study of Gallus gallus with 858 samples.

Results

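The cells described here carried transcripts of both SOHO-1 (ENSGALG00000015599), a homeobox gene of the forming ear, and GATA3 (ENSGALG00000029270), a zinc finger factor gene of the ear placode, and were compared between a late and an early placode stage of the chick. They were chosen by measured values. A cell was kept with at least 500000 counted reads and 1000 genes, and entered the gate with SOHO-1 at 20 or more and GATA3 at 10 or more CPM (counts per 1000000 reads of the cell). The gate held 100 cells at the stages compared, 56 at ss15 (22.8% of the kept cells of that stage, exact 95% interval 17.7 to 28.5) and 44 at ss11 (16.8%, 12.5 to 21.9), out of 858 deposited cells. Embryos at ss15 had 14 to 15 somites and embryos at ss11 had 11 to 12. An earlier stage, ss8 (8 to 9 somites), gave 8 cells of the gate (2.93% of its kept cells) and is not part of the comparison. All embryos had received, by electroporation at the head fold stage, a plasmid in which the Pax2E1 enhancer drives EGFP. Cells were thus selected first by an enhancer active in the common progenitors of ear and epibranchial placodes and later in these placodes, and heads were cut in front of the first somite, so that other head tissue was in the dissociated material. EGFP-positive cells were sorted singly from the dissociated heads, and each cell gave 1 SmartSeq2 library, a method that reads along whole transcripts. No embryo is named, and by the study's methods each stage was sorted as 1 batch, so each stage stood as 1 sample. No test between stages could be made, stage and sort cannot be told apart, and intervals below cover counting error only.

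The ear begins as the otic placode, a patch of thickened head ectoderm that folds inward to a cup and then a vesicle. It shares its progenitors with the epibranchial placodes, which lie beside it and give sensory neurons of cranial ganglia. SOX8 and SOX10, SoxE family factors, and LMX1A, a LIM homeodomain factor, are known from the otic placode, whereas SOX10 is also a factor of migrating neural crest. Signals of the Wnt and FGF families help to set the otic domain apart from its neighbors, and cells secrete antagonists that restrict such signals.

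The gate genes themselves describe the choice of cells and are no finding. Across the gated cells SOHO-1 ran from 25.4 to 3913 CPM with a median of 312 at ss15, and from 24.3 to 1857 CPM with a median of 153.6 at ss11. GATA3 ran from 11.4 to 718 CPM with a median of 200.2 at ss15, and from 10.5 to 907 CPM with a median of 113.1 at ss11. Few cells lay near the limits. Among the cells outside the gate that met the GATA3 limit, the highest SOHO-1 value was 8.18 CPM at ss15 and 14.9 CPM at ss11, and 59 of 62 such cells at ss15 and 62 of 68 at ss11 had no SOHO-1 read. Among those that met the SOHO-1 limit alone, the highest GATA3 value was 3.38 CPM at ss15 and 0.98 CPM at ss11, and 19 of 22 at ss15 and 16 of 18 at ss11 had no GATA3 read. A transcript can be missed in a cell that has it, so cells without a read of 1 gate gene are not shown to lack it.

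**Figure D1:**
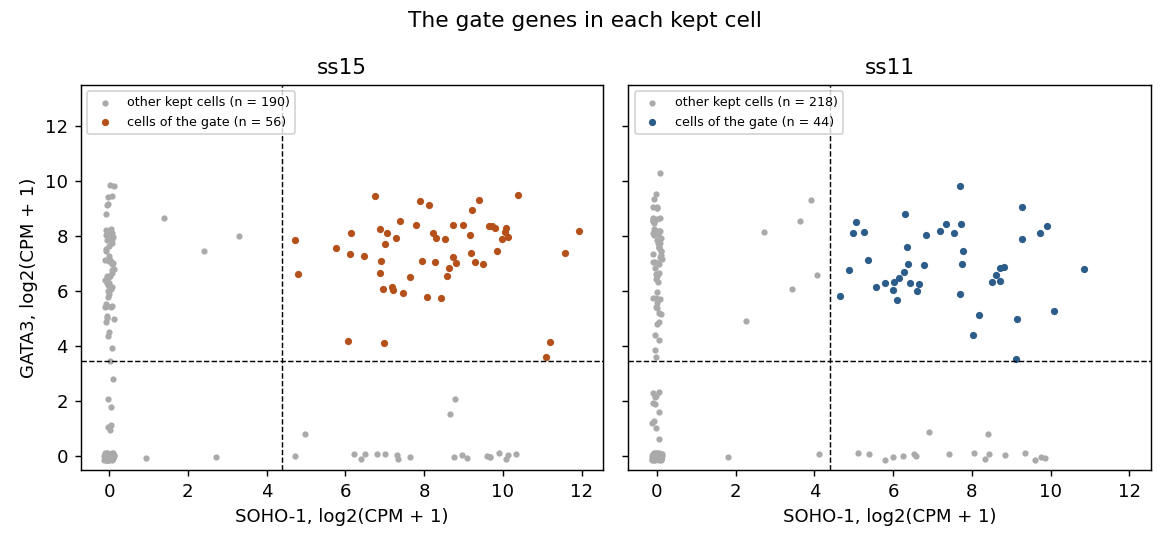
SOHO-1 on the horizontal axis and GATA3 on the vertical axis in each kept cell of ss15 (left) and ss11 (right), as log2(CPM + 1), with gated cells colored and other kept cells gray. Dashed lines are the limits of 20 and 10 CPM, and points of other cells are spread slightly so that cells at 0 can be seen. Most cells outside the gate have no read of SOHO-1, and few lie close to a line.

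Gated cells of the late stage had fewer genes detected. The median ss15 cell had 4563 genes and 898437 counted reads, and the median ss11 cell had 5384 genes and 1046301.5 reads. With each cell thinned to 500000 reads the medians were 4485 and 5222 genes, whereas in the other kept cells they were 4750 at ss15 and 4746 at ss11. The 50 genes with most reads held 23.6% of a cell's reads at ss15 and 23.96% at ss11 (medians over gated cells). Reporter transcripts were read in 50 of 56 gated ss15 cells (89.3%, 78.1 to 95.97) and 37 of 44 gated ss11 cells (84.1%, 69.9 to 93.4), with medians of 204.9 and 208.7 CPM. Outside the gate GFP was read in 56.3% of ss15 cells and 50.9% of ss11 cells. No gated cell of ss15 or ss11 was near-identical to another library, as their highest correlation with any other cell was 0.88.

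The gated cells carried the otic markers that the gate did not use, together with some epibranchial ones. SOX10 was at 10 CPM or more in 47 of 56 ss15 cells (83.9%, 71.7 to 92.4) and 42 of 44 ss11 cells (95.5%, 84.5 to 99.4), against 36.8% and 44.04% of the other kept cells of ss15 and ss11. SOX8 was at that level in 48 ss15 cells (85.7%) and 42 ss11 cells (95.5%), against 48.4% and 54.1% of the other cells. Of 5 otic markers (SOX8, SOX10, LMX1A, LMO4 and DLX3) the median gated cell had 3 at ss15 and 4 at ss11, and at least 2 were found in 51 of 56 ss15 cells and 43 of 44 ss11 cells. Most gated cells thus carried otic markers and a few did not, as 2 ss15 cells and 1 ss11 cell had none of the 5 at 10 CPM. The summed level of the 5 markers ran from 3.13 to 3817 CPM per cell at ss15 (median 966) and from 6.55 to 2552 CPM at ss11 (median 1009.6).

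Epibranchial markers were not absent from the gate. At least 2 of 8 such markers (TFAP2E, NELL1, PDLIM1, VGLL2, PRDM1, ISL1, UPK1B and TLX1) were found in 28 of 56 ss15 cells (exact 95% interval 36.3 to 63.7%) and 30 of 44 ss11 cells (68.2%, 52.4 to 81.4). In the other kept cells this share was 48.4% at ss15 and 42.2% at ss11, and among cells with VGLL2 at 20 CPM or more outside the gate it was 49 of 51 at ss15 and 25 of 25 at ss11. The gate gene GATA3 was at 10 CPM in 27 of those 51 ss15 cells and 21 of those 25 ss11 cells. GATA3 alone thus did not set the gated cells apart from them. VGLL2, a cofactor gene of the epibranchial placodes, was itself at 10 CPM in 10 gated ss15 cells and 6 gated ss11 cells. Summed over the 8 markers, gated cells ran from 0 to 1238 CPM at ss15 (median 183.8) and from 0 to 2624 CPM at ss11 (median 202.1). SOX10 fell short of 10 CPM in 9 gated ss15 cells, of which 7 had at least 2 epibranchial markers and 5 had SOX8, and in 2 gated ss11 cells, of which 1 had 2 epibranchial markers and 1 had SOX8.

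Cells with several markers of other head tissues were few in the gate. At least 2 of 5 neural crest markers (PAX7, FOXD3, TFAP2B, DRAXIN and EDNRB) were found in 4 of 56 ss15 cells and 4 of 44 ss11 cells, against 22.1% and 32.6% of the other kept cells of ss15 and ss11. At least 1 of the 5 was found in 17 of 56 ss15 cells (30.4%) and 20 of 44 ss11 cells (45.5%), against 44.2% and 57.3% of the other kept cells. DRAXIN was the most frequent of them, at 10 CPM in 17.9% of gated ss15 cells and 34.1% of gated ss11 cells, against 20.5% and 41.3% of the other cells. EDNRB, an endothelin receptor gene, was at 10 CPM in 1 gated ss15 cell (1.79%) and 7 gated ss11 cells (15.9%), against 11.1% and 10.1% of the other cells. FOXD3, a factor gene of early crest, was at 10 CPM in 1 gated ss15 cell and 2 gated ss11 cells. The summed crest level of the gated cells ran from 0 to 412 CPM at ss15 and from 0 to 2872 CPM at ss11, with medians of 0 and 2.30 CPM. ZIC1, a neural factor gene, was at 10 CPM in 1 ss15 cell and 0 of 44 ss11 cells, which allows a share of up to 6.82% (the limit taken for a count of 0 is 3 cells of the total). SIM1, a factor gene of mesoderm, was at 10 CPM in 0 of 56 ss15 cells, which allows up to 5.36%, and in 1 ss11 cell.

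**Figure D2:**
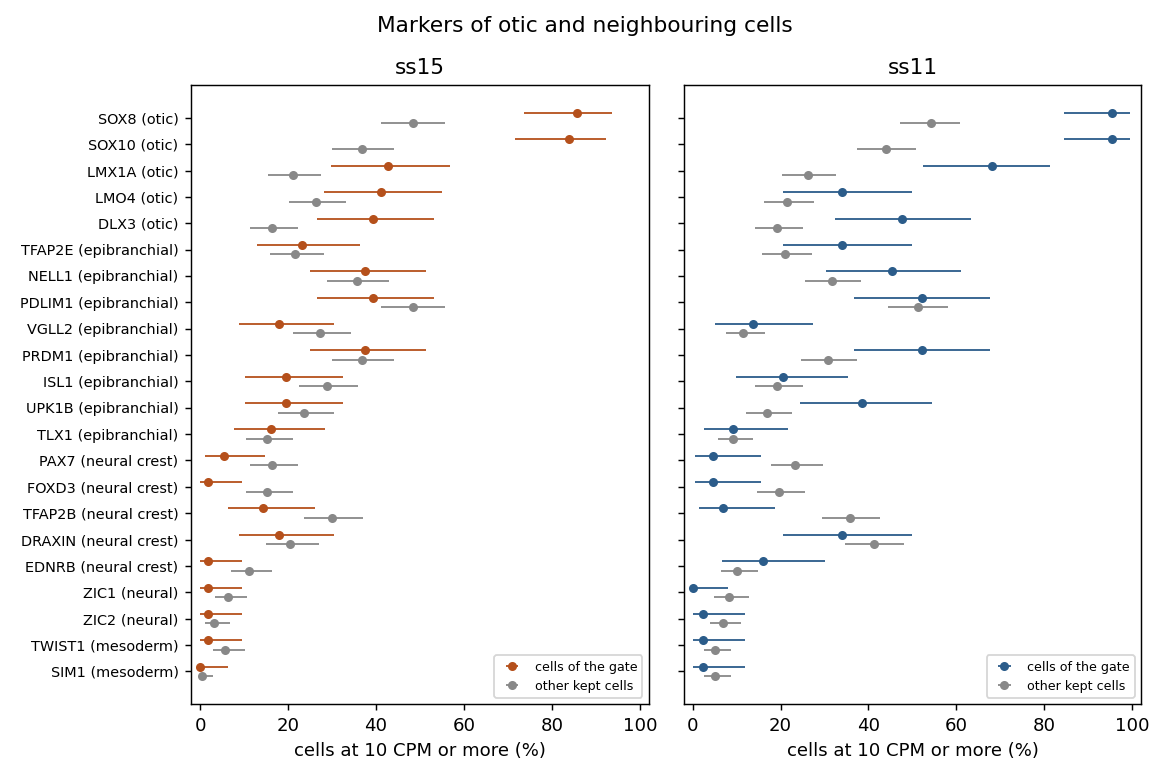
Share of cells at 10 CPM or more for markers of 5 tissues in gated cells (colored) and other kept cells (gray) of ss15 (left) and ss11 (right), with exact 95% intervals for counting error. SOX8 and SOX10 reach 85.7% and 83.9% of the gated cells at ss15 and 95.5% each at ss11, while of the 5 crest markers only EDNRB at ss11 (15.9%) reaches a larger share of the gated cells than of the other cells (10.1%).

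Between the stages most genes kept their summed level within the gate, and more of the measured genes were 2-fold lower than 2-fold higher at ss15. Counts were summed over the gated cells of a stage and scaled to CPM, and a gene was measured where 1 stage had at least 20 CPM and at least 20% of its cells at 10 CPM. Of 6785 genes measured, 2.84% were at least 2-fold higher at ss15 and 4.73% (321 genes) at least 2-fold lower, with a median log2 fold, ss15 over ss11 after adding 1 CPM, of -0.02. With no minimum 1616 genes were at least 2-fold higher and 1527 lower, so the excess of lower genes depended on the limits. In the other kept cells, which are more numerous, 0.713% of 6735 genes were at least 2-fold higher at ss15 and 0.624% at least 2-fold lower. The share of cells at 10 CPM was lower at ss15 for 5680 of the 6785 genes and higher for 936, with a median difference of -9.09 percentage points, which was the same in thinned cells. A gene that met the limits at 1 stage alone tended to be higher there, so counts and medians over the measured members of a list are given as descriptions. Lower shares of cells were thus general in the gate at ss15, and the share is given beside each gene together with the summed level. All 321 lower genes and 81.9% of the higher genes had a share that moved the same way as the level. A single ss15 cell gave over 50% of the reads of 15 of the higher genes, and a single ss11 cell gave as much of 1 lower gene. Only 1.503% of the measured genes had a symbol in the study's tables, 4 of them 2-fold higher and 15 lower.

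**Figure D3:**
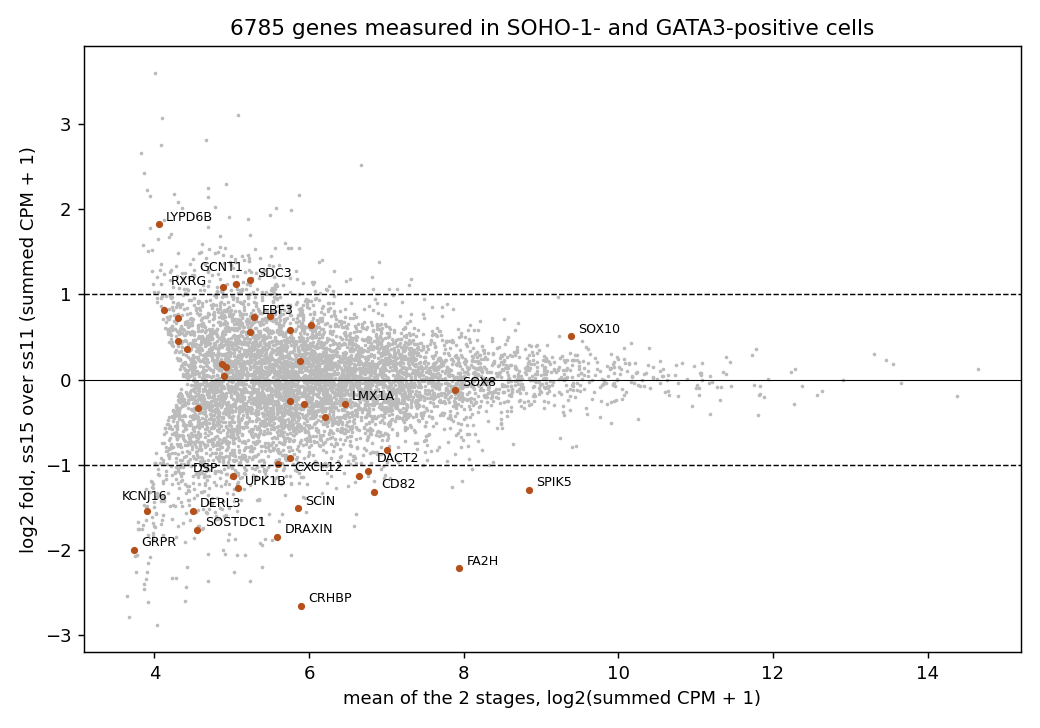
Log2 fold of summed CPM + 1, ss15 over ss11, on the vertical axis against the mean of both stages on the horizontal axis for the 6785 genes measured in the gated cells. Genes named in the text are colored, and dashed lines mark 2-fold. FA2H and CRHBP stand lowest among abundant genes with a symbol, and SOX10, SOX8 and LMX1A lie within 2-fold.

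The otic factors other than the gate genes did not move one way, and the most abundant of them, SOX10, had a higher summed level and a lower share of cells at ss15. Of 26 otic factors on the list, 11 had an identifier and 9 were measured. Among the 9, 1 was at least 2-fold higher and none 2-fold lower, beside 2.84% and 4.73% of all genes measured, and 7 lay above 0, with a median log2 fold of 0.45 against -0.02 over all genes. RXRG, DLX6, LMO4 and IRX1 met the limits at ss15 alone, where their sums were higher, and LMO4 gave the median. The median and the number above 0 thus depended on the limits. The share of cells was lower at ss15 for 5 of the 9 and higher for 4. At a minimum of 50 CPM, which SOX10, SOX8 and LMX1A met, the median was -0.12. SOX10 ran from 0 to 3070 CPM per cell with a median of 580.4 at ss15, and from 0 to 1661 CPM with a median of 449 at ss11. Its values overlapped almost wholly between the stages, with the highest cells at ss15 and also more cells under 10 CPM there. Summed over cells SOX10 stood at 783 CPM at ss15 and 551 CPM at ss11, a log2 fold of 0.51 (counting interval 0.47 to 0.54), while its share of cells went the other way, as given above.

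SOX8 and LMX1A did not follow SOX10. SOX8 ran from 0 to 1119 CPM with a median of 184.5 at ss15 and from 0 to 1060 CPM with a median of 240.7 at ss11, and its summed level was 226.5 CPM at ss15 and 245.7 CPM at ss11 (log2 -0.12, -0.17 to -0.06). LMX1A ran from 0 to 473 CPM with a median of 0 at ss15, and from 0 to 518 CPM with a median of 59.1 at ss11. It was at 10 CPM in 24 of 56 ss15 cells (42.9%, 29.7 to 56.8) and 30 of 44 ss11 cells (68.2%, 52.4 to 81.4), although its summed level differed by a log2 fold of only -0.28 (78.7 CPM at ss15 and 95.96 CPM at ss11). LMX1A thus differed more in how many cells had it than in its summed level. SOX8, SOX10 and LMX1A were found together in 21 of 56 ss15 cells (37.5%, 24.9 to 51.5) and 28 of 44 ss11 cells (63.6%, 47.8 to 77.6).

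Among the otic factors of lower level, RXRG, DLX6 and EBF3 were higher in summed level and share at ss15. RXRG, a retinoid X receptor gene, was the 1 member of the otic list past 2-fold, at 39.2 CPM at ss15 and 17.9 CPM at ss11 (log2 1.09, 0.93 to 1.24), and was at 10 CPM in 20 of 56 ss15 cells and 13 of 44 ss11 cells. Its cells ran from 0 to 187.9 CPM at ss15 and from 0 to 169.1 CPM at ss11, with a median of 0 at either stage, so the stages overlapped throughout. The mean of the CPM of single cells gave a log2 fold of 0.65 for RXRG and thinned cells gave 0.60, both under 2-fold. RXRG was not particular to the gate. The other kept cells had higher sums, 85.9 CPM at ss15 and 41.4 CPM at ss11, with a similar fold (log2 1.03). EBF3, a helix-loop-helix factor gene, was at 47.8 CPM at ss15 and 28.4 CPM at ss11 (log2 0.73), and in 22 ss15 and 15 ss11 cells at 10 CPM. DLX6, a Distal-less family gene, was at 21.2 CPM at ss15 and 11.6 CPM at ss11 (log2 0.81), and in 17 and 10 cells. LMO4, a LIM domain cofactor gene, was at 21.9 CPM at ss15 and 15.8 CPM at ss11, DLX3 at 31.1 and 27.9 CPM, and IRX1, an Iroquois homeobox gene, at 23.2 and 17.8 CPM, differences of 0.45, 0.15 and 0.36 in log2. EBF2 and PROX1 did not reach the limits for a measured gene.

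The largest differences among genes with a symbol were lower levels at ss15 of genes for a lipid enzyme, a hormone-binding protein and surface and secreted proteins. FA2H, an enzyme that hydroxylates fatty acids of sphingolipids, ran from 0 to 721 CPM per cell with a median of 0 at ss15, and from 0 to 1849 CPM with a median of 180.6 at ss11. It was at 10 CPM in 23 of 56 ss15 cells (41.1%, 28.1 to 55.02) and 31 of 44 ss11 cells (70.5%, 54.8 to 83.2). Its share of cells, its median and its highest value were all lower at ss15, although the ranges overlapped. Summed, FA2H was at 86.2 CPM at ss15 and 403 CPM at ss11, a log2 fold of -2.21 (-2.28 to -2.15), and no single ss11 cell gave more than 9.49% of its ss11 reads. CRHBP, which binds corticotropin-releasing hormone, was at 15.3 CPM at ss15 and 101.6 CPM at ss11 (log2 -2.65, -2.79 to -2.52), in 9 of 56 and 22 of 44 cells. Its highest cell was at 403 CPM at ss15 and 865 CPM at ss11. CRHBP met the limits for a measured gene at ss11 alone, where it was high, whereas FA2H met them at both stages.

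CD82, CXCL12 and SCIN were lower as well. CD82, a tetraspanin of the cell surface, ran from 0 to 358 CPM with a median of 0 at ss15, and from 0 to 721 CPM with a median of 75.8 at ss11 (log2 -1.32 for sums of 64.4 and 162.1 CPM). CXCL12, the chemokine ligand of CXCR4, ran from 0 to 504 CPM with a median of 9.59 at ss15, and from 0 to 721 CPM with a median of 78.7 at ss11 (log2 -1.13 for sums of 61.8 and 136.6 CPM). SCIN, an actin-severing protein, was at 29.1 CPM at ss15 and 84.9 CPM at ss11 (log2 -1.51), in 9 of 56 and 19 of 44 cells. It met the limits at ss11 alone, where it was high. In CD82, CXCL12 and SCIN the share of cells at 10 CPM was lower at ss15, and the highest cell was at ss11. Of FA2H, CRHBP, CD82, CXCL12 and DACT2 the median cell had 2 at ss15 and 3 at ss11, and 10 ss15 cells and 1 ss11 cell had none; these 5 were set together after their values were seen. The ss15 cells with FA2H had a median of 5316 genes detected and those without it 3943, and the ss11 cells with and without it had 5396 and 5002, so presence of FA2H went with the number of genes per cell. The part of gene number in the lower level was not tested.

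Others of the 14 lowest were low in level or rested on fewer cells. GRPR, the receptor of gastrin-releasing peptide, was at 4.35 CPM at ss15 and 20.3 CPM at ss11 (log2 -1.99), in 3 of 56 and 10 of 44 cells. A single ss15 cell gave 49.1% of its ss15 reads, and without that cell the log2 fold was -2.70. KCNJ16, an inward rectifier potassium channel gene, was at 6.69 CPM at ss15 and 21.3 CPM at ss11, and 1 ss15 cell gave 68.9% of its ss15 reads. DERL3, of the endoplasmic reticulum, was at 10.6 CPM at ss15 and 32.5 CPM at ss11 (log2 -1.54). GRPR, KCNJ16 and DERL3 met the limits at ss11 alone, where they were high. SPIK5, a protease inhibitor of the Kazal type, was at 265.7 CPM at ss15 and 653 CPM at ss11 (log2 -1.29), in 18 cells at each stage, and 1 ss11 cell at 8162 CPM gave 35.8% of the ss11 reads. Without that cell the log2 fold of SPIK5 was -0.70, so its place past 2-fold rested on 1 cell.

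**Figure D4:**
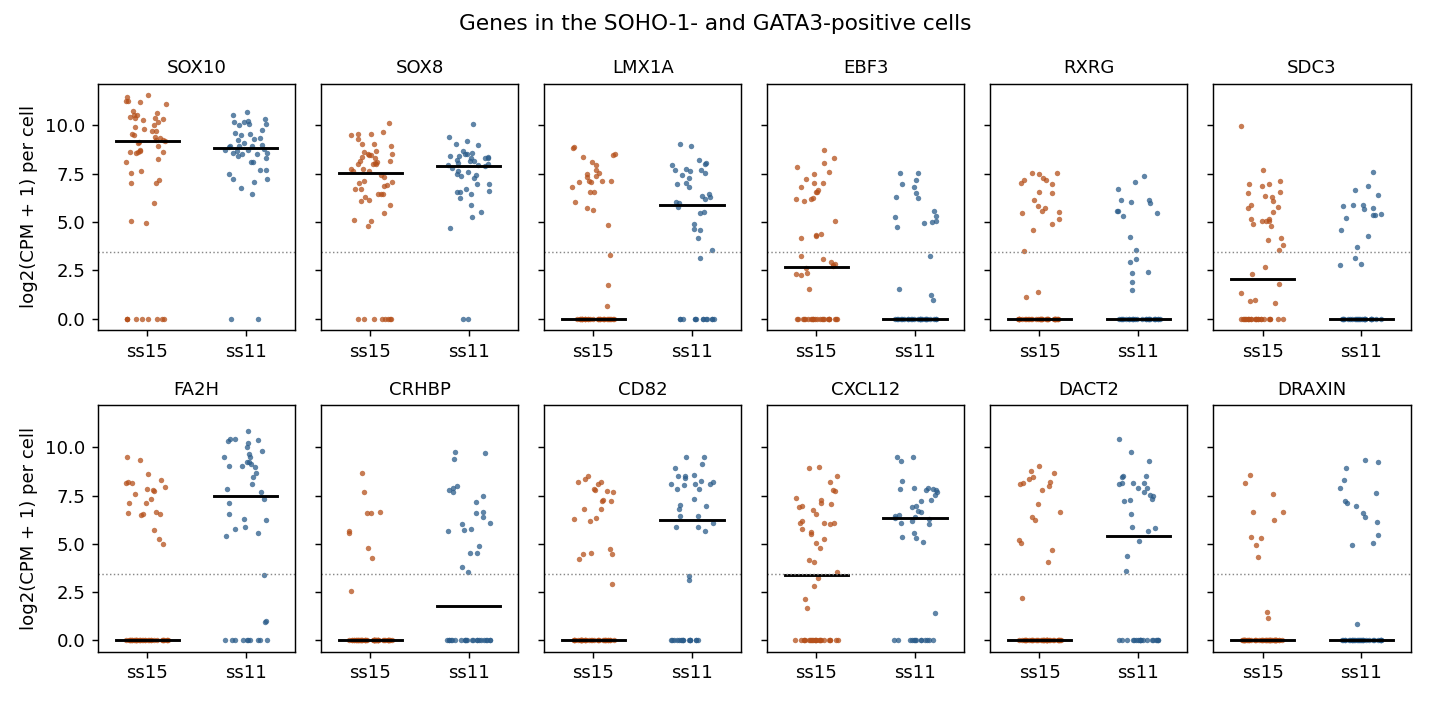
Level of 12 genes in each gated cell as log2(CPM + 1), with the 56 ss15 cells on the left of each panel and the 44 ss11 cells on the right, a bar at the median and a dotted line at 10 CPM. SOX10 and SOX8 are found in most cells of both stages, and FA2H, CRHBP, CD82 and DACT2 reach the line in smaller shares of the cells at ss15.

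Among genes of the Wnt pathway the antagonists DRAXIN, SOSTDC1, DACT2 and SFRP1 were lower in summed level at ss15. The list of Wnt ligands and antagonists had 8 members with an identifier. The 4 just named were measured and lay below 0, 3 of them past 2-fold beside 4.73% of all genes, and the 4 under the limits all had higher sums at ss15, so that the median log2 fold was -1.42 over the measured members and 0.28 with no minimum. DRAXIN and SOSTDC1 met the limits at ss11 alone, where they were high. DRAXIN, a secreted antagonist and axon guidance protein that is also on the neural crest list, was at 19.98 CPM at ss15 and 74.2 CPM at ss11 (log2 -1.84, -1.97 to -1.71), in 10 of 56 and 15 of 44 cells. SOSTDC1, a secreted antagonist of BMP and Wnt, was at 9.71 CPM at ss15 and 35.4 CPM at ss11 (log2 -1.76), in 8 and 14 cells. DACT2, which binds Dishevelled, ran from 0 to 522 CPM with a median of 0 at ss15 and from 0 to 1384 CPM with a median of 41.8 at ss11, with sums of 69.2 and 146.1 CPM (log2 -1.07). SFRP1, a secreted Frizzled-related protein, was the most abundant of them, at 91.9 CPM at ss15 and 164.1 CPM at ss11 (log2 -0.83), and was at 10 CPM in 35 of 56 and 33 of 44 cells. The lower level of DRAXIN was not confined to the gate, as the other kept cells had 62.3 CPM at ss15 and 496 CPM at ss11.

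The ligands WNT9A, WNT9B and WNT11 and the Wnt inhibitor gene TRABD2A were not measured in the gate by the limits, and their shares were small. WNT11 was at 10 CPM in 5 ss15 and 2 ss11 cells, and WNT9B in 1 ss15 cell and 0 of 44 ss11 cells, which allows up to 6.82%. TRABD2A was at 10 CPM in 10 of 56 ss15 cells and 3 of 44 ss11 cells, at summed levels of 14.3 and 4.14 CPM. Of the nuclear effectors, LEF1 was at 29.2 CPM at ss15 and 28.3 CPM at ss11 (log2 0.04, -0.10 to 0.19) and TCF7L1 at 19.8 and 25.3 CPM (log2 -0.33). The difference in LEF1 had no stable direction, as it came to -1.42 without the cells that had 2 epibranchial markers and to 0.97 in cells with at least 1000000 reads and 2000 genes. TCF7L1 was at 10 CPM in 21 of 56 ss15 cells and 29 of 44 ss11 cells, and met the limits at ss11 alone, where it was higher.

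Of 12 genes on the FGF list only 4 had an identifier, so the others were not looked at. FGF18, a secreted FGF ligand, was the 1 measured member. It ran from 0 to 262.6 CPM with a median of 0 at ss15, and from 0 to 565 CPM with a median of 21.2 at ss11. The sums were 36.3 CPM at ss15 and 69.4 CPM at ss11, a log2 fold of -0.92 (-1.03 to -0.81), just short of 2-fold, and it was at 10 CPM in 21 of 56 and 27 of 44 cells. FGF8 was at 10 CPM in 11 ss15 and 7 ss11 cells, at summed levels of 12.4 and 7.80 CPM, under the limits.

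The epibranchial genes did not move one way in the gate. Of 17 on the list 14 had an identifier and 5 were measured, and the 5 lay below 0 with a median log2 fold of -0.44, 1 of them past 2-fold beside 4.73% of all genes. Of the 9 under the limits 6 lay above 0 and 3 below, and the median over the 14 was -0.16. In cells with at least 1000000 reads and 2000 genes the median of the measured members was 0.15. UPK1B, a tetraspanin of the uroplakin group, was at 18.8 CPM at ss15 and 46.8 CPM at ss11 (log2 -1.27, -1.42 to -1.13), in 11 of 56 and 17 of 44 cells, and met the limits at ss11 alone. ISL1, a LIM homeodomain factor gene of neuronal precursors, was at 31.4 CPM at ss15 and 63.4 CPM at ss11 (log2 -0.99), but 1 ss11 cell gave 43.4% of its ss11 reads, and without it the log2 fold was -0.22. ISL1, like UPK1B, met the limits at ss11 alone, where it was high, so the median of the measured members depended on the limits. PDLIM1, PRDM1 and NELL1, for a LIM protein of the actin skeleton, a zinc finger repressor and a secreted protein, differed by -0.44, -0.29 and -0.26 in log2. These 3 turned direction in other choices of cells, with PDLIM1 at 0.24 and NELL1 at 0.15 in cells with at least 1000000 reads and 2000 genes, and PRDM1 at 0.23 and NELL1 at 1.97 without cells that had 2 epibranchial markers, a choice that used NELL1. VGLL2 and TLX1, which were not measured by the limits, were at 29.1 and 26.4 CPM at ss15 and at 14.8 and 7.13 CPM at ss11. With the gated cells that had at least 2 of VGLL2, TFAP2E, NELL1, UPK1B and PDLIM1 left out, 36 ss15 and 22 ss11 cells remained, and there FA2H, CRHBP and DRAXIN had log2 folds of -2.57, -2.83 and -1.95.

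Few neural crest and neuronal genes could be measured. Of 8 crest genes with an identifier 2 were measured, DRAXIN, described above, and SNAI1, a zinc finger repressor gene of cells that leave an epithelium. SNAI1 was at 43.7 CPM at ss15 and 29.5 CPM at ss11 (log2 0.55), while it was at 10 CPM in 9 of 56 and 15 of 44 cells, and 1 ss15 cell gave 26.9% of its ss15 reads. The neuronal list had ISL1 as its 1 measured member, and ISL2, under the limits, was at 10 CPM in 13 of 56 ss15 cells and 4 of 44 ss11 cells.

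Epithelial adhesion genes mostly differed by less than 2-fold, and the measured keratins had lower sums at ss15. Of 9 measured adhesion genes 1 was 2-fold lower and none 2-fold higher, beside 4.73% and 2.84% of all genes, and the median log2 fold was -0.11. Below 0 lay 8 of the 9, and 1 lay above. EPCAM, an epithelial adhesion molecule, was at 1010.2 CPM at ss15 and 1016 CPM at ss11 (log2 -0.01), and CDH1, E-cadherin, at 82.6 and 85.1 CPM (log2 -0.04). CLDN1, of tight junctions, was at 10 CPM in every gated cell and ran from 168.9 to 7746 CPM at ss15 and from 75.01 to 8166 CPM at ss11. Its sums were 3072 CPM at ss15 and 4103 CPM at ss11 (log2 -0.42). DSP, desmoplakin, which ties desmosomes to intermediate filaments, was at 19.3 CPM at ss15 and 43.3 CPM at ss11 (log2 -1.13, -1.27 to -0.98), a difference that was close to 0 in cells chosen by SOHO-1 alone. It met the limits at ss11 alone, where it was high. PKP2 and DSG2, also of desmosomes, differed by -0.61 and -0.35, whereas PERP1 was at 57.97 CPM at ss15 and 37.5 CPM at ss11 (log2 0.61). PKP2 met the limits at ss11 alone, where it was higher. The 3 measured keratins, KRT18, KRT7 and KRT19, were at 184.1, 166.8 and 412 CPM at ss15 and at 353, 277.1 and 506 CPM at ss11, log2 folds of -0.93, -0.73 and -0.30. Among 7 measured actin and myosin genes SCIN was past 2-fold, MYL4, a myosin light chain, was at 124.8 CPM at ss15 and 240.3 CPM at ss11 (log2 -0.94), and EZR, ezrin, at 410 and 414 CPM (log2 -0.02).

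Of the matrix and secreted proteins 9 of 18 with an identifier were measured, and 2, CXCL12 and SPIK5, were past 2-fold, both lower at ss15 (beside 4.73% of all genes), with a median log2 fold of -0.32 over the 9. GAS6, a ligand of TAM receptors, and COL14A1, a collagen, differed by -0.86 and -0.83. GAS6 met the limits at ss11 alone, where it was higher. The immediate early genes FOS and JUN, factors that cells switch on quickly when stimulated, differed in opposite directions. FOS was at 31.1 CPM at ss15 and 54.4 CPM at ss11 (log2 -0.79) and JUN at 30.2 and 26.5 CPM (log2 0.18).

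Fewer genes with a symbol were higher than lower at ss15. Most of those named were at 10 CPM in a minority of cells, as were many of the 14 lowest. Of 37 genes with a symbol above 0, 13 also had a higher share of cells, and these are the ones named here. Shares were lower at ss15 for most measured genes, so the rule on shares passed fewer of the higher genes. SDC3, a heparan sulfate proteoglycan of the cell surface, ran from 0 to 1015 CPM with a median of 3.22 at ss15, and from 0 to 194.5 CPM with a median of 0 at ss11, and was at 10 CPM in 26 of 56 and 16 of 44 cells. Its sums of 51.1 and 22.3 CPM gave a log2 fold of 1.16 (1.02 to 1.30), but 1 ss15 cell gave 36.5% of the ss15 reads and without it the log2 fold was 0.55. LYPD6B, of the Ly6 family, was at 24.9 CPM at ss15 and 6.34 CPM at ss11 (log2 1.82, 1.599 to 2.04), in 12 of 56 and 3 of 44 cells. A single ss11 cell gave 66.7% of its ss11 reads, and without that cell the log2 fold was 3.03. GCNT1, an enzyme that branches O-linked glycans, was at 44.5 CPM at ss15 and 19.9 CPM at ss11 (log2 1.12), in 14 and 9 cells, and at 0.46 without its highest ss15 cell. SDC3, LYPD6B, GCNT1 and RXRG were the 4 past 2-fold. LYPD6B, GCNT1 and RXRG met the limits at ss15 alone, where they were high. Leaving out any 1 cell kept LYPD6B at 1.49 or more, and took RXRG as low as 0.92, under 2-fold.

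The other 9 of the 13 lay under 2-fold. ATP8B1, a phospholipid flippase gene, differed by 0.74, AvBD5, an avian beta-defensin gene, by 0.72, KIAA1217 by 0.64 and HEYL, a target of Notch signals, by 0.58 in log2. AvBD5 met the limits at ss15 alone, where it was higher. In cells with at least 1000000 reads and 2000 genes ATP8B1 and AvBD5 turned to -0.81 and -0.64, as did IRX1 among the otic factors to -0.86. EMP1 and JUN, the last of them, differed by 0.21 and 0.18, close to no difference. DLX6, EBF3 and LMO4 were given with the otic factors. KIAA1217 was the most widely found, at 10 CPM in 32 of 56 ss15 cells and 24 of 44 ss11 cells.

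The stage differences of the gated cells can be set beside those of the kept cells outside the gate, with no test of the difference. The make-up of the cells outside the gate differed between the stages. VGLL2 was at 10 CPM in 27.4% of them at ss15 and 11.5% at ss11. At least 2 crest markers were found in 22.1% of them at ss15 and 32.6% at ss11. The part of this changed mix in the stage differences outside the gate was not tested. Of the 13 highest genes 7 met the limits outside the gate, where 3 were higher and 4 lower at ss15, and of the 14 lowest 11 met them, where 4 were lower and 7 higher. Of all genes measured on both sides 51.7% lay above 0 outside the gate. FA2H outside the gate was at 181.1 CPM at ss15 and 145.01 CPM at ss11 (log2 0.32), and CRHBP, which did not meet the limits there, at 18.5 and 20.02 CPM (log2 -0.11). At ss11 these genes thus stood 403 against 145.01 CPM and 101.6 against 20.02 CPM inside and outside the gate, and at ss15 86.2 against 181.1 CPM and 15.3 against 18.5 CPM. SPIK5, UPK1B and DSP were higher at ss15 outside the gate, by 1.34, 0.90 and 0.72 in log2. RXRG and EBF3 had log2 folds of 1.03 and 0.78 outside the gate (EBF3 under the limits there), and FGF18 had -0.92 on both sides. AvBD5, also under the limits outside the gate, was at 8.54 CPM at ss15 and 1.02 CPM at ss11 there (log2 2.24).

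**Figure D5:**
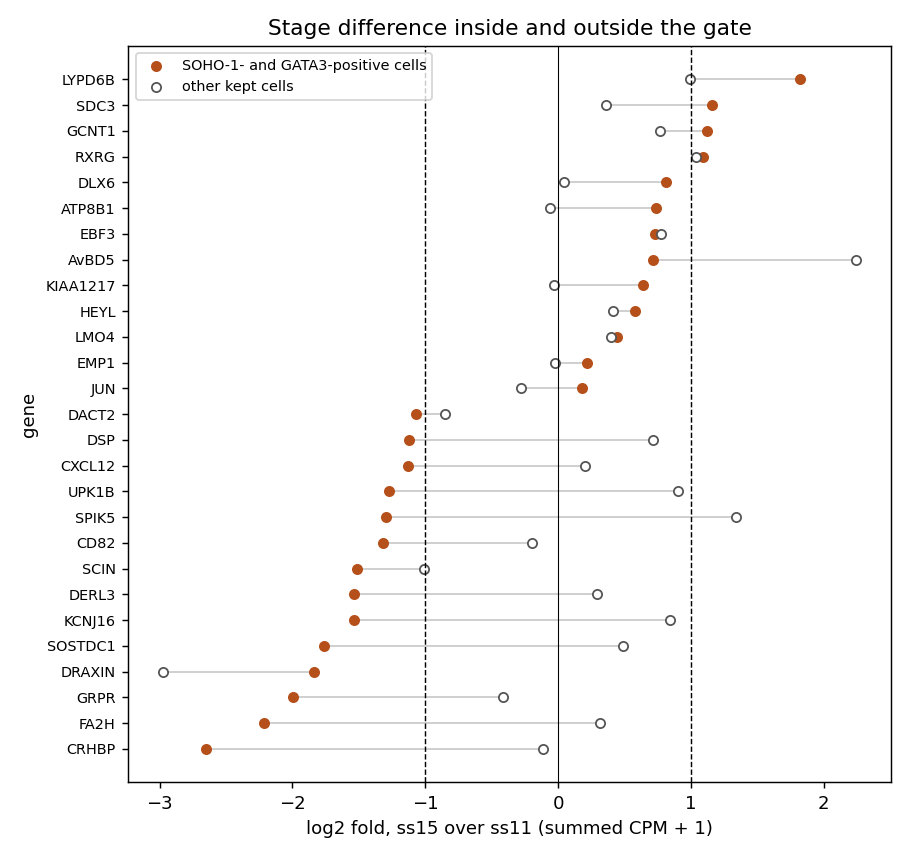
Log2 fold of summed CPM + 1, ss15 over ss11, for the 13 highest and 14 lowest named genes in gated cells (filled) and other kept cells (open), with dashed lines at 2-fold. The genes were ordered by their fold in the gated cells, so the filled points decline by construction; 8 of the 14 lowest genes have open points above 0, 7 of them among the 11 that met the limits outside the gate.

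The list medians took different signs in some groups. Those outside the gate also come from cells whose make-up differed between the stages, as given above. Over the measured epibranchial genes the median was -0.44 in the gate (5 genes) and 0.41 outside it (8 genes, VGLL2 among them), so the sets of genes differed. In the VGLL2-positive cells outside the gate, the 5 genes measured in the gate differed less. Their log2 folds there were 0.37 for NELL1, 0.30 for UPK1B, 0.08 for PDLIM1, 0.02 for PRDM1 and -0.09 for ISL1. Over epithelial adhesion genes the median was -0.11 inside and 0.44 outside (the same 9 genes). Over matrix and secreted proteins it was -0.32 and 0.48 (9 genes each, not all the same). AvBD5 was measured inside only, and COL9A3, which gave the outside median, outside only. Keratins were below 0 on both sides, -0.73 and -0.67. In cells with VGLL2 at 20 CPM or more outside the gate (51 at ss15 and 25 at ss11) FA2H was at 398 CPM at ss15 and 401 CPM at ss11, CD82 at 236.4 and 215.9 CPM, and SFRP1 at 49.5 and 128.6 CPM. SCIN was lower at ss15 there too, by -1.67 in log2. DRAXIN did not meet the limits there. It was at 5.97 CPM at ss15 and 25.6 CPM at ss11 (log2 -1.93), in 2 of 51 and 2 of 25 cells at 10 CPM.

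Some genes past 2-fold in the gate passed it elsewhere too, in larger shares than all genes did. Their shares exceeded those of all genes in the opposite direction as well as in the same one. Of the higher genes 75.1% were measured in the other kept cells, where 7 (4.83%) were at least 2-fold higher and 1 lower, with 62.1% above 0. Of the lower genes 71.03% were measured there, where 10 (4.39%) were at least 2-fold lower and 2 higher, with 54.8% below 0. Among all 6311 genes measured on both sides, 34 (0.539%) were 2-fold higher and 25 (0.396%) lower outside the gate. In the VGLL2-positive cells outside the gate 16.5% of the higher genes measured there were 2-fold higher and 8.63% 2-fold lower, and of the lower genes 17.1% were 2-fold lower and 10.6% 2-fold higher, beside 6.06% higher and 6.03% lower among all genes measured on both sides. The groups differ in their numbers of cells, and the differences between these shares were not tested.

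The study's lists of genes higher in sorted otic or epibranchial tissue of later embryos were used as lists of names. Of the otic list 21 genes were measured in the gate, 2 of them 2-fold higher (9.52%) and 3 lower (14.3%), beside 2.84% and 4.73% of all genes, with a median log2 fold of -0.12. Of 319 genes of the epibranchial list 86 were measured, 3 of them 2-fold higher and 13 lower (15.1%, against 4.73% of all genes), with a median of -0.29. In the other kept cells, whose make-up differed between the stages, 78 epibranchial genes were measured, with a median of 0.28. Of these 6 were 2-fold higher (7.69%) and 3 lower (3.85%), beside 0.713% and 0.624% of all genes measured in those cells.

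Most genes past 2-fold had no symbol, 97.9% of the higher and 306 of the 321 lower. The 2 highest were ENSGALG00000001864, at 28.6 CPM at ss15 and 1.46 CPM at ss11 (log2 3.59), in 12 of 56 and 3 of 44 cells, and ENSGALG00000029680, at 59.5 and 6.06 CPM (log2 3.10), for which 1 ss15 cell gave 57.7% of the ss15 reads. The 2 lowest were ENSGALG00000035537, at 2.92 CPM at ss15 and 27.8 CPM at ss11 (log2 -2.87), in 6 and 15 cells, and ENSGALG00000004438, at 2.23 and 21.3 CPM (log2 -2.79), in 2 and 9 cells. The 2 highest met the limits at ss15 alone and the 2 lowest at ss11 alone, where each was high.

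The 8 gated cells of ss8 give an earlier point, with few cells and, by the study's methods, another sequencer and read layout. From ss8 through ss11 to ss15 the summed SOX10 level of the gated cells was 142.1, 551 and 783 CPM, and SOX8 stood at 86.2, 245.7 and 226.5 CPM. LMX1A was at 136.1, 95.96 and 78.7 CPM, and RXRG at 5.76, 17.9 and 39.2 CPM. VGLL2 and TLX1 had no read in the 8 cells, which allows a share of up to 37.5%. PRDM1 was at 10 CPM in all 8, NELL1 and PDLIM1 in 7, TFAP2E in 6, UPK1B in 4 and ISL1 in 1. Among the other kept ss8 cells PRDM1 was at 10 CPM in 37.7%, NELL1 in 47.2%, PDLIM1 in 81.5% and TFAP2E in 21.5%. Of the crest markers PAX7, TFAP2B and EDNRB were each at 10 CPM in 4 of the 8 gated cells, DRAXIN in 3 and FOXD3 in 0.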

How the data were processed

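Single EGFP-positive cells of electroporated chick embryos were measured by SmartSeq2. Counts per gene and cell were used as deposited by the authors. Per the labels, the submitters' processing notes name cutadapt 2.10, HISAT2 2.2.1, SAMtools 1.10, HTSeq 0.12.4 and the assembly galGal6. The deposited table held 24356 genes, and GFP counts came as a separate deposited row. SmartSeq2 reads carry no molecular identifiers, so counts include PCR copies, and no strand, so overlapping genes on opposite strands cannot be told apart.

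Counts were divided by the cell total and multiplied to CPM. Kept cells numbered 246 of 286 at ss15, 262 of 284 at ss11 and 273 at ss8. Gated cells were summed by stage, and folds taken after adding 1 CPM. The 2 gate genes were left out. Because each stage is 1 sample, a fixed size of 2-fold stood in place of a test (193 genes higher and 321 lower). Intervals are exact 95% Poisson intervals for levels and exact 95% binomial intervals for shares. Fold intervals set the lower Poisson limit of 1 stage against the upper limit of the other, so they are not exact 95% intervals. Reads were taken as independent counts, so PCR copies and the spread between cells are not covered. For a share of 0 the limit printed is 3 cells of the total, as a fixed floor. The fold calculation was run on simulated cells with known folds, drawn with the same dispersion for every gene. That run checked the calculation only, since the spread between cells in these data was not simulated. Named genes were the 14 highest and 14 lowest with a symbol whose share of cells moved the same way (13 higher ones did), and the measured members of 6 lists (otic, epibranchial, crest, 2 Wnt lists, FGF). At most 2 genes without a symbol were added on each side. Symbols came from the study's tables (332 identifiers), which hold genes that differed in its bulk comparisons, so the named genes are a biased sample. The authors' fold changes and p-values in those tables were not used beyond the sign that places a gene in a list. Members and lists were chosen with earlier results of these data known. Of 8 pairs of near-identical ss8 libraries (correlation above 0.95), 1 of each was counted. No clustering was done and doublets were not removed beyond the sort's own gate. The software was Python 3.11.15, SciPy 1.17.1 and edgeR 4.0.16 (TMM factors, an alternative).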

Additional observations from a re-analysis of the deposited data

How the results depend on the processing

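The numbers of genes past 2-fold moved most where the setting by its construction changed which genes were measured or how many cells entered. At a minimum of 50 CPM, 1.77% of the measured genes (74) were higher and 2.17% (91) lower at ss15, and with no minimum 8.65% and 8.17%, so that lower genes made up 48.6% of those past 2-fold. With at least 1000000 reads and 2000 genes per cell, 21 ss15 and 27 ss11 cells gave 5.62% higher and 9.05% lower genes. Without cells with 2 epibranchial markers, 36 and 22 cells gave 7.10% and 10.1%. With SOHO-1 at 20 CPM alone (78 and 62 cells), 2.55% of the genes were lower. TMM factors, cell means, thinning, a pseudocount of 5, the stricter gate, leaving out crest-marked cells and, chosen after seeing the data, leaving out cells with no GFP read kept both counts within 1.5 times. Leaving out each cell in turn gave 2.75 to 3.22% higher and 4.51 to 5.04% lower genes. None of the named genes with a symbol past 2-fold changed sign under these settings. Of the named genes under 2-fold, ATP8B1, AvBD5, IRX1, EMP1, JUN, DLX3, LEF1, NELL1, PRDM1 and PDLIM1 changed sign in at least 1 setting, LEF1 most often, with its sign kept in 9 of 15. The median of the otic factors was -0.12 at a minimum of 50 CPM, that of the epibranchial genes 0.15 under the stricter cell limits, and that of the Wnt ligands and antagonists 0.28 with no minimum. UPK1B, SCIN, SOSTDC1, DRAXIN, GRPR, FA2H and CRHBP stayed past 2-fold under all 15 settings, and LYPD6B came to 0.79 under the stricter cell limits. DSP came to -0.0016 with SOHO-1 alone, RXRG to 0.60 in thinned cells, and DACT2 to -0.60 and CD82 to -0.83 under the stricter cell limits. No paired analysis was possible because each stage is 1 sample.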
